A study of Mus musculus with 8 samples.

Results

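The NMDA receptor subunit genes Grin1, Grin2a, Grin2b, Grin2c, Grin2d and Grin3a were taken from a table of gene expression in mouse hippocampus by their symbols. Each symbol had 1 row, so the set holds 6 of the 23939 distinct gene symbols in the table. The study compared RNA-seq libraries with the genotype labels WT, for wild type, and Slm2KO, 4 of each. SLM2 is the protein made from Khdrbs3, an RNA-binding regulator of alternative splicing in neurons. All 8 libraries came from the hippocampus of C57BL/6 mice aged 8 weeks. Total RNA was the starting material for the TruSeq RNA kit, and any selection of RNA within it is not described here. The labels give no sex, no treatment and no description of the knockout allele, and they leave unsaid whether each library is a different animal. The p-values therefore measure only the spread among these libraries, which may be technical.

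NMDA receptors are glutamate-gated ion channels that combine the obligatory subunit GluN1, encoded by Grin1, with GluN2 or GluN3 subunits. The channel opens when GluN2 binds glutamate, GluN1 binds glycine or D-serine, and depolarisation relieves the block by magnesium, and the calcium that then enters starts synaptic plasticity. The GluN2 subunits set how long the channel stays open and where the receptor is found: GluN2B prevails in the young forebrain and GluN2A gains ground with maturation, GluN2C is best known from cerebellar granule cells and from glia, and GluN2D from interneurons. GluN3A lowers calcium entry and is strongest in early postnatal life.

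The values are normalised read counts that are not divided by gene length. Reads recovered for the features of the table summed to between 104020058 and 125985224 per library, and reads outside these features are not included. Mitochondrial transcripts took 10.7% to 12.7% of the reads. Prox1, Wfs1 and Amigo2, markers of the dentate gyrus, CA1 and CA2, were present in every library, with means of 6967, 5837 and 6961 normalised reads. Khdrbs3 did not read lower under the Slm2KO label, at 22051 ± 2387 in WT and 29749 ± 3040 in Slm2KO (SD, n = 4 each; log2 difference 0.43, SE 0.0926, limma adjusted p = 1.00; two-sided exact permutation p = 0.0286, the smallest this design allows, with each Slm2KO library above each WT library), and whether this row holds reads from outside a deleted stretch is not given by the labels. A direction stated below is one between libraries labelled WT and libraries labelled Slm2KO. Ttr, the transthyretin gene of the choroid plexus, ranged from 219052 in WT 2 to 2262369 in Slm2KO 4.

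All 6 genes lie on the minus strand of mm10, the build named in the table's header. The Grin1 row (GSMG0022525) spans chromosome 2, 25291177 to 25319187. The Grin2a row (GSMG0043791) spans chromosome 16, 9577710 to 9992548, and the Grin2b row (GSMG0033814) spans chromosome 6, 135729826 to 136173512. Grin2c (GSMG0007618) is on chromosome 11, 115249169 to 115267304, Grin2d (GSMG0035925) on chromosome 7, 45832483 to 45866681, and Grin3a (GSMG0027801) on chromosome 4, 49661612 to 49845770. Set against GENCODE vM21, an annotation of the same assembly, the rows of Grin1, Grin2c and Grin3a stop within 4 bases of the annotated 3′ end of the gene. The annotated gene runs on for 600 bases beyond the Grin2d row, for 9812 bases beyond the Grin2a row and for 16593 bases beyond the Grin2b row.

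The 2 genes with the longest such remainder have a short and a long annotated transcript, and their last 30 bases are printed because the results for these genes turn on which end is counted. Capitals mark the polyadenylation signal AATAAA where it is present.
Grin2b-202, short end, chr6:135729826-135729855: ttcctcttacctctcaccctttaaaatttt
Grin2b-201, long end, chr6:135713233-135713262: AATAAAgaaacctaccacaaattatcaggg
Grin2a-202, short end, chr16:9577741-9577770: gggtaaacgttggatgtccaatagcaccct
Grin2a-206, long end, chr16:9567898-9567927: gataatttctgccacttgatatgaaaatga
The sequences are from the mm10 minus strand, written 5′ to 3′. The Grin2b row ends at the same base as Grin2b-202, whereas transcript Grin2b-201 is 24060 bases long and carries AATAAA at the start of its last 30 bases. Transcript Grin2a-206 is 14634 bases long and has neither AATAAA nor ATTAAA, the common variant, in its last 30 bases, and neither has Grin2a-202. For comparison, on the transcript strand alone, 35.5% of the last 30 bases of 58793 protein-coding transcripts in GENCODE held AATAAA and 9.74% held ATTAAA.
Of the other genes, Grin2c, Grin2d and Grin3a each have a transcript end with AATAAA or ATTAAA, in capitals, and the Grin1 ends have neither.
Grin2c-201, chr11:115249169-115249198: tgggacATTAAAgcaacgttttacaaccca
Grin2d-201, chr7:45831883-45831912: ggAATAAAaccatgtttttacgcctcctca
Grin3a-201, chr4:49661611-49661640: tgtggAATAAAtgttcagacagaaacttca
A match describes these letters only, and its absence says nothing about where the RNA ends.

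Grin1 encodes GluN1, the subunit found in every NMDA receptor. Its normalised read count was 30314, 33833, 25484 and 29764 in WT 1 to 4 and 31313, 31560, 30579 and 23780 in Slm2KO 1 to 4. Slm2KO 4 was the lowest library and WT 2 the highest, and the groups overlapped. The means were 29849 ± 3423 in WT and 29308 ± 3709 in Slm2KO (SD, n = 4 each), a log2 difference of -0.03 (SE 0.107; limma adjusted p = 1.00; two-sided exact permutation p = 0.743). Here and below, differences are Slm2KO minus WT on the log2(value + 1) scale, the adjusted p covers 25667 features, and the threshold is 0.05. In a bulk sample, fewer cells of a type and less RNA per cell cannot be told apart.

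Grin2a encodes GluN2A, a GluN2 subunit of mature principal neurons. Its own row read 5907, 6310, 5032 and 7273 normalised reads in WT 1 to 4 and 5621, 6415, 5180 and 4761 in Slm2KO 1 to 4. The groups overlapped, with the highest value in WT 4 and the lowest in Slm2KO 4. The group means were 6130 ± 930 and 5494 ± 707, a log2 difference of -0.15 (SE 0.118; limma adjusted p = 1.00; two-sided exact permutation p = 0.314).

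Grin2b encodes GluN2B, which prevails earlier in development and also persists in the adult hippocampus. Its own row read 2491, 2530, 1998 and 2142 in WT and 2071, 2562, 1653 and 2228 in Slm2KO. The lowest and the highest value were both in Slm2KO libraries, Slm2KO 3 and Slm2KO 2, so the WT range lay inside the Slm2KO range. Means were 2290 ± 262 and 2128 ± 377, with a log2 difference of -0.12 (SE 0.130; limma adjusted p = 1.00; two-sided exact permutation p = 0.543).

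Grin2c encodes GluN2C. WT libraries held 3995, 4631, 4006 and 4150 normalised reads and Slm2KO libraries 3602, 4208, 3744 and 3372. In 3 of 4 Slm2KO libraries the value was below every WT library, but Slm2KO 2 was above 3 WT libraries, so the groups overlapped. The means were 4196 ± 299 and 3732 ± 353, with a log2 difference of -0.17 (SE 0.0778), and this was the smallest unadjusted p of the 6 genes (limma unadjusted p = 0.0524, adjusted p = 1.00; two-sided exact permutation p = 0.114).
Markers of the cells GluN2C is known from were read beside it. The summed count of 6 cerebellar granule cell genes was 1220 to 1418 in WT and 1087 to 1204 in Slm2KO. These ranges did not overlap. The share of all single features without overlap was 2.5%, but no such share was computed for sums of 6 genes. Taken singly, Pax6 overlapped, at 647 to 758 in WT and 627 to 744 in Slm2KO, and so did Cbln1, at 392 to 605 and 343 to 472. Pax6 and Cbln1 led the sum, with means of 693 and 428, followed by Cbln3 (88.9) and Fat2 (24.7). Gabra6 and Barhl1 were near 0, with means of 5.27 and 3.38 normalised reads. Barhl1 was 0 in 3 Slm2KO libraries and 10.8, its highest value, in Slm2KO 4. The summed count of 8 astrocyte genes was 138399 to 158023 in WT and 133983 to 149826 in Slm2KO. Of these, 8 of 8 had a negative log2 difference (median -0.11), beside 53.9% of all features. This sign was not particular to astrocytes: it was found in 6 of 6 oligodendrocyte precursor genes (median -0.13) and 6 of 7 endothelial and mural genes (median -0.28). Of 12 interneuron genes, 5 were negative (median 0.03). The part of granule cells and astrocytes in the Grin2c values was not tested.

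Grin2d encodes GluN2D, best known from inhibitory neurons in the adult forebrain. The WT libraries read 1026.5, 1047, 869 and 748, and the Slm2KO libraries 943, 789, 814 and 802. WT 4 was the lowest library of all and the groups overlapped. Means of 922 ± 141 and 837 ± 71.4 gave a log2 difference of -0.13 (SE 0.116; limma adjusted p = 1.00; two-sided exact permutation p = 0.286). The summed count of 12 interneuron genes was 108666 to 113722 in WT and 103968 to 120921 in Slm2KO, also overlapping. On the opposite strand, a row without a symbol (GSMG0034487) overlaps the 3′ end of the Grin2d row by 2763 bases and reached 88.5% of the Grin2d count, at 771 ± 86.1 in WT and 786 ± 154 in Slm2KO. The TruSeq RNA kit does not mark strand, so the reads of Grin2d and of this feature cannot be told apart where they overlap.

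Grin3a encodes GluN3A. Values of 2192, 2091, 1580 and 2007 in WT stood beside 2475, 1997, 2522 and 1734 in Slm2KO. Slm2KO 1 and 3 were above every WT library and WT 3 was below every other library, so the groups overlapped. Grin3a was the only gene of the 6 with a positive difference, from 1968 ± 269 to 2182 ± 381 (log2 difference 0.14, SE 0.138; limma adjusted p = 1.00; two-sided exact permutation p = 0.486).

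**Figure D1:**
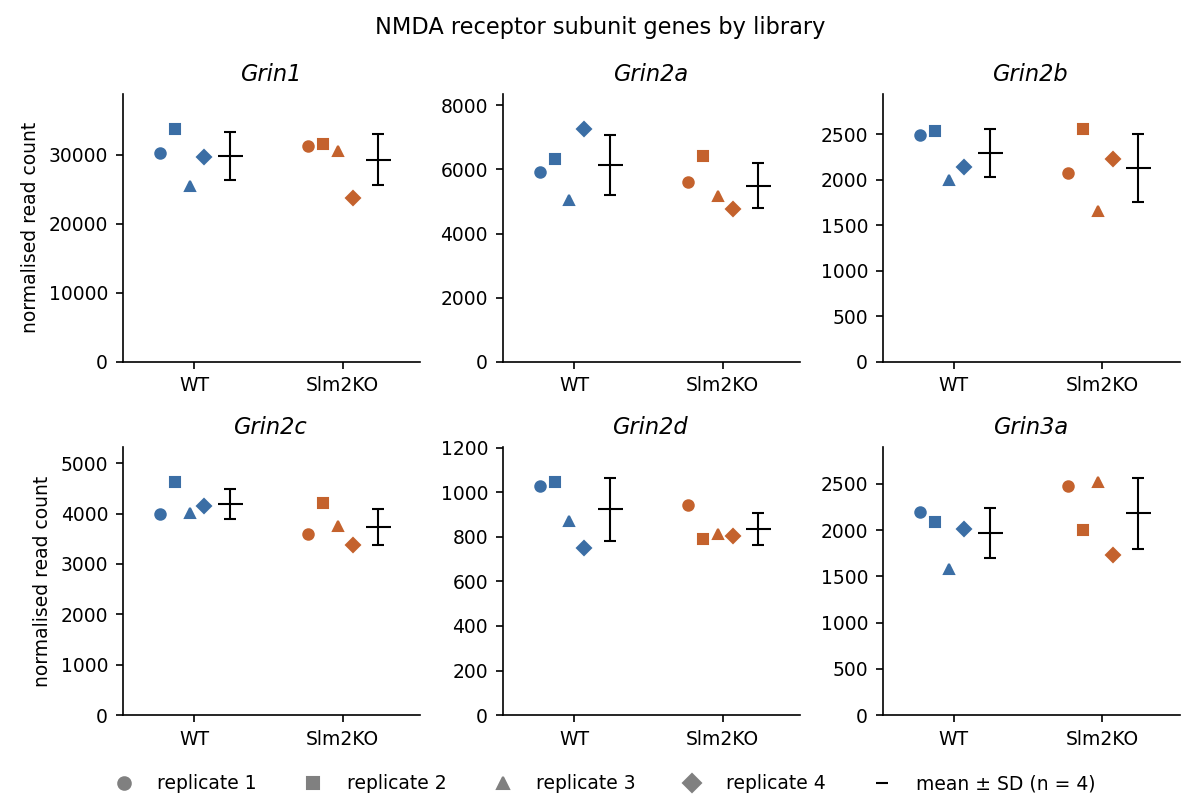
Normalised read count (linear axis from 0) of each NMDA receptor subunit gene in the 4 WT (blue) and 4 Slm2KO (orange) libraries, with marker shapes for replicate numbers and a bar for mean ± SD. The groups overlap for each of the 6 genes, and for Grin1 the library Slm2KO 4, at 23780, lies below the other Slm2KO libraries.

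Of the 6 genes, 0 passed the threshold by limma, against a background of 0.0039% of all features tested. By limma none had an unadjusted p under 0.05, against 3.52% of all features, and 0 had groups that did not overlap, against 2.5% (1.33% with Slm2KO higher and 1.17% with Slm2KO lower). By edgeR's quasi-likelihood test and by DESeq2 on the recovered reads the count of genes past the threshold was also 0. Grin2c lay close to an unadjusted p of 0.05: it was under it in 9 of 22 alternatives, edgeR, DESeq2 and the Ttr covariate among them, with an adjusted p of at least 0.832 in each of the 22. Grin2a was under it in 1 alternative (without WT 3), and the other 4 genes in 0. The log2 difference was negative for 5 genes and positive for 1, with a median of -0.12, beside a median of -0.01 and 53.9% negative over all features. The 95% confidence intervals of the 6 fold differences ran from 0.749 to 1.37 in all, so no interval reached 1.5-fold up or down. Over all features, 65.7% had an interval within 1.5-fold. The intervals of Grin2a and Grin2b are those of the genes' own rows alone. Counting error of a single library was at most 0.673% for Grin1 and 3.67% for Grin2d, the deepest and the shallowest of the 6, while the coefficient of variation between libraries of a label ran from 7.12% to 17.7%.

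**Figure D2:**
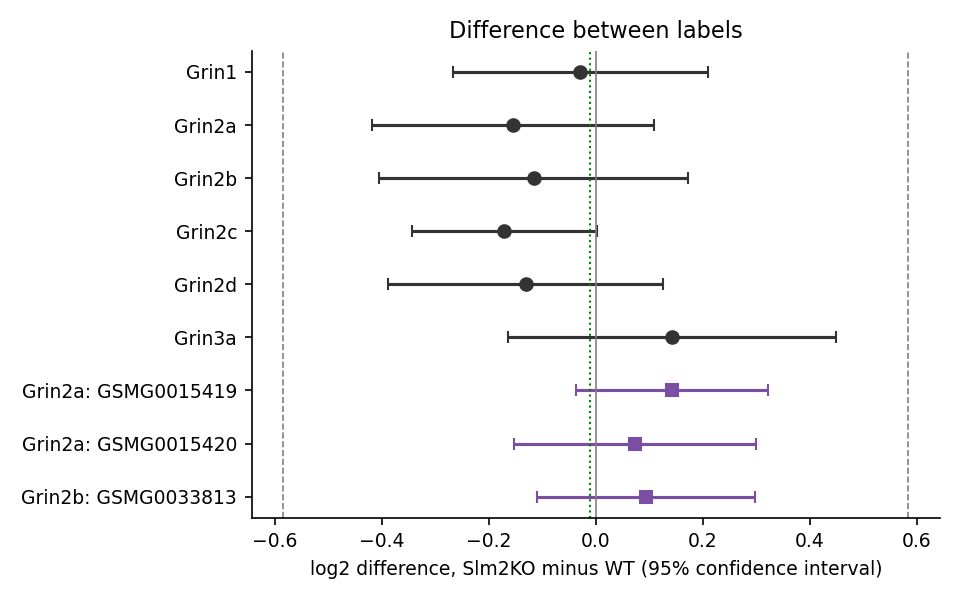
Log2 difference between Slm2KO and WT libraries (horizontal axis) with its 95% confidence interval for the 6 subunit genes (circles) and for the 3 rows without a symbol that cover exons beyond the 3′ ends of Grin2a and Grin2b (squares). Dashed lines mark 1.5-fold, the dotted line marks the median of all features at -0.01, and each interval reaches 0.

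The level of Ttr moved with some of the 6 genes across libraries. For Grin1, Pearson's r with log2 Ttr was -0.84 over 8 libraries (two-sided exact permutation p = 0.0111, adjusted over 6 genes p = 0.0664) and Spearman's rho was -0.83 (exact permutation p = 0.0154, adjusted p = 0.0559). The r was -0.70 without WT 2 and Slm2KO 4, whose Ttr lies farthest from the median. Grin2c had r = -0.74 (exact permutation p = 0.0339, adjusted p = 0.102) and Spearman's rho = -0.79 (exact permutation p = 0.0279, adjusted p = 0.0559), but r was -0.21 without those libraries, so its relation rests on them. Grin2a had r = -0.63 (exact permutation p = 0.0923, adjusted p = 0.185) and rho = -0.81 (exact permutation p = 0.0218, adjusted p = 0.0559), with r = -0.51 without them. Grin2b, Grin2d and Grin3a had r of -0.36, -0.21 and -0.37, with exact permutation p of 0.391, 0.622 and 0.371, and of -0.23, 0.58 and -0.31 without WT 2 and Slm2KO 4, so the sign for Grin2d turned. No relation passed after adjustment. Summed markers of hippocampal principal neurons (18 genes) ran from 252755 to 303344 in WT and from 228564 to 321224 in Slm2KO, a sum led by Slc17a7 with a mean of 154246. Of these 18, 13 had a negative log2 difference (median -0.07), beside 53.9% negative (median -0.01) over all features. The other 5 had a positive difference. By limma 0 passed the threshold. Of the 18, 4 were lower and 0 higher with an unadjusted p under 0.05, against 3.52% of all features in either direction. Tdo2 ran from 1365 to 1394 in WT and from 963 to 1263 in Slm2KO, and Pdyn from 2397 to 2842 and from 2217 to 2332. Both were without overlap, as were 1.17% of all features with Slm2KO lower. Prox1 overlapped, at 7085 to 7869 and 5390 to 7312. The part of these marker genes in the subunit values was not tested. Without WT 2 and Slm2KO 4 the log2 difference was 0.13 for Grin1, -0.07 for Grin2a, -0.09 for Grin2b, -0.08 for Grin2c, -0.05 for Grin2d and 0.28 for Grin3a.

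Levels were compared between genes as normalised read counts per kilobase of annotated exons inside each gene's row. On this scale Grin1 was first at 6772 (range over 8 libraries 5444 to 7746), followed by Grin2a at 1284 (1052 to 1607) and Grin2c at 787 (669 to 919). Grin3a at 277 (211 to 337), Grin2b at 269 (202 to 312) and Grin2d at 201 (171 to 239) were lower. Grin1 was above Grin2a, Grin2a above Grin2c, Grin2c above Grin3a and Grin2b above Grin2d in 8 of 8 libraries, whereas Grin3a was above Grin2b in only 3 of 8, so these neighbours did not differ beyond their spread. The level of Grin1 per kilobase was 5.27 times that of Grin2a and 33.7 times that of Grin2d.
The AMPA receptor genes, which carry most fast excitatory current, had levels per kilobase of 15346 (Gria2), 8706 (Gria1), 3928 (Gria3) and 746 (Gria4) on the same scale. The Gria2 row stops 3486 bases short of the annotated 3′ end. Rows beyond that end were not added here or in the ratio of NMDA to AMPA receptor levels.

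The order within the GluN2 subunits depended on the 3′ ends. Past the end of the Grin2a row, 2 rows without a symbol lie wholly in annotated Grin2a exons on the same strand: GSMG0015419 (chromosome 16, 9567912 to 9570990) and GSMG0015420 (9574160 to 9574834). Past the Grin2b row lies GSMG0033813 (chromosome 6, 135713233 to 135714962), which begins at the annotated last base of Grin2b-201. Together the Grin2a rows cover 3754 bases and the Grin2b row covers 1730 bases, and the rest of each annotated stretch is in no such row. The sources used here do not say which exons the table counts for each row.

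Together these rows held more reads than the rows named for the genes. Beyond the Grin2a row there were 19635, 20271, 17108 and 20716 normalised reads in WT and 18741, 23242, 22291 and 21151 in Slm2KO. Beyond the Grin2b row there were 12467, 12153, 9615 and 10552 in WT and 11016, 13361, 11457 and 11846 in Slm2KO. In every library the count beyond the end exceeded the gene's own row, making up 74.0% to 81.6% of the sum for Grin2a and 82.8% to 87.4% for Grin2b. Per kilobase the rows beyond the end read 5433 for Grin2a and 6681 for Grin2b, 4.23 and 24.8 times the gene's own row, beside 6772 per kilobase for Grin1.

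**Figure D3:**
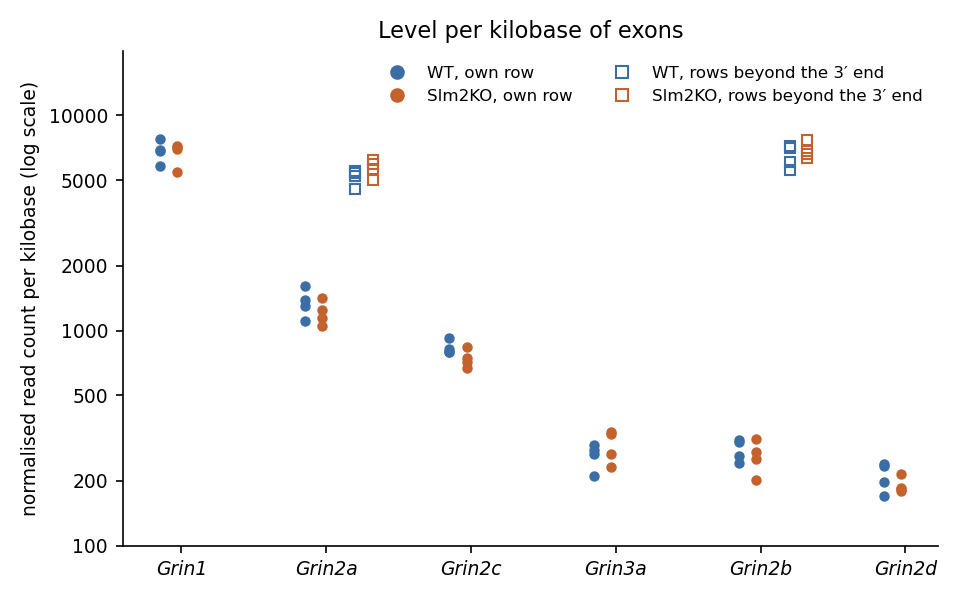
Normalised read count per kilobase (log axis) of the 6 subunit genes in each library, for the gene's own row (filled circles) and for the rows beyond the 3′ end of Grin2a and Grin2b (open squares), WT in blue and Slm2KO in orange. The squares of Grin2b, at a mean of 6681, lie 24.8 times above its circles, at 269.

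With these rows added to the count and their bases to the length, the level per kilobase was 6772 for Grin1, 3165 for Grin2a, 1386 for Grin2b, 787 for Grin2c, 277 for Grin3a and 201 for Grin2d, each above the next in 8 of 8 libraries. Grin2b thus moved from place 5 to place 3. As a share of the summed GluN2 level per kilobase, Grin2b was 10.5% ± 1.00 in WT and 10.8% ± 1.54 in Slm2KO from the named rows (SD, n = 4 each), and 24.7% ± 1.77 and 25.3% ± 1.12 with the rows beyond the ends. Grin2c went the other way, from 31.2% ± 2.24 and 30.8% ± 1.34 to 15.2% ± 1.06 and 13.3% ± 0.595. Grin2a held 50.4% ± 3.91 and 50.4% ± 1.46 from the named rows and 56.2% ± 2.39 and 58.0% ± 1.20 with the added rows, and Grin2d 7.91% ± 1.32 and 8.00% ± 1.01, then 3.84% ± 0.551 and 3.44% ± 0.516. Grin2a was the leading GluN2 gene by both counts. By the rows beyond the ends alone, Grin2b was above Grin2a, at 6681 against 5433 per kilobase. With the named rows divided by the length of the longest annotated transcript, which holds bases outside those rows, Grin2c at 810 per kilobase was above Grin2a at 397.

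None of the 3 rows beyond the ends passed the threshold between the labels. GSMG0015419 was 17501 ± 1385 in WT and 19335 ± 1804 in Slm2KO (log2 difference 0.14; limma adjusted p = 1.00), GSMG0015420 was 1932 ± 275.5 and 2021 ± 155 (0.07), and GSMG0033813 was 11197 ± 1347 and 11920 ± 1019 (0.09), all with an adjusted p of 1.00. All 3 differences were positive where those of the named Grin2a and Grin2b rows were negative.

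The ratio of the count beyond the 3′ end to the count of the own row compares these directly within a library. For Grin2a it was 3.32, 3.21, 3.40 and 2.85 in WT and 3.33, 3.62, 4.30 and 4.44 in Slm2KO. The groups overlapped, with 3 Slm2KO libraries above every WT library. The means were 3.20 ± 0.244 and 3.93 ± 0.533, a log2 difference of 0.29 (SE 0.104; limma over 206 genes, p = 0.0184, adjusted p = 0.302; two-sided exact permutation p = 0.0571). For Grin2b it was 5.01, 4.80, 4.81 and 4.93 in WT and 5.32, 5.22, 6.93 and 5.32 in Slm2KO. Each Slm2KO library was above each WT library, although 3 of the 4 were within 5.22 to 5.32. The means were 4.89 ± 0.0965 and 5.70 ± 0.825, a log2 difference of 0.21 (SE 0.0945; limma, p = 0.0488, adjusted p = 0.304; exact permutation p = 0.0286, the smallest this design allows), and 0.11 without Slm2KO 3.

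The same ratio could be formed for 206 genes, those with a row without a symbol of at least 90% annotated exon beyond their own row's 3′ end and means of at least 100 on both. Of these, 0 passed the threshold (0%), and 15 had groups that did not overlap with Slm2KO higher (7.28%), Grin2b among them, and 0 with Slm2KO lower. The ratio was higher in Slm2KO for 87.4% of the genes, with a median log2 difference of 0.12, and the median ratio over all these genes was 0.625. By size of this ratio of counts, not divided by length, Grin2b ranked 4 and Grin2a ranked 14 of 206. The difference between the labels had the same direction for most of the 206 genes as for Grin2a and Grin2b. Whether the ratios move together from library to library was not tested, nor was the part of the shared direction in the Grin2a and Grin2b differences. This comparison was added after the rows beyond the ends had been seen.

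**Figure D4:**
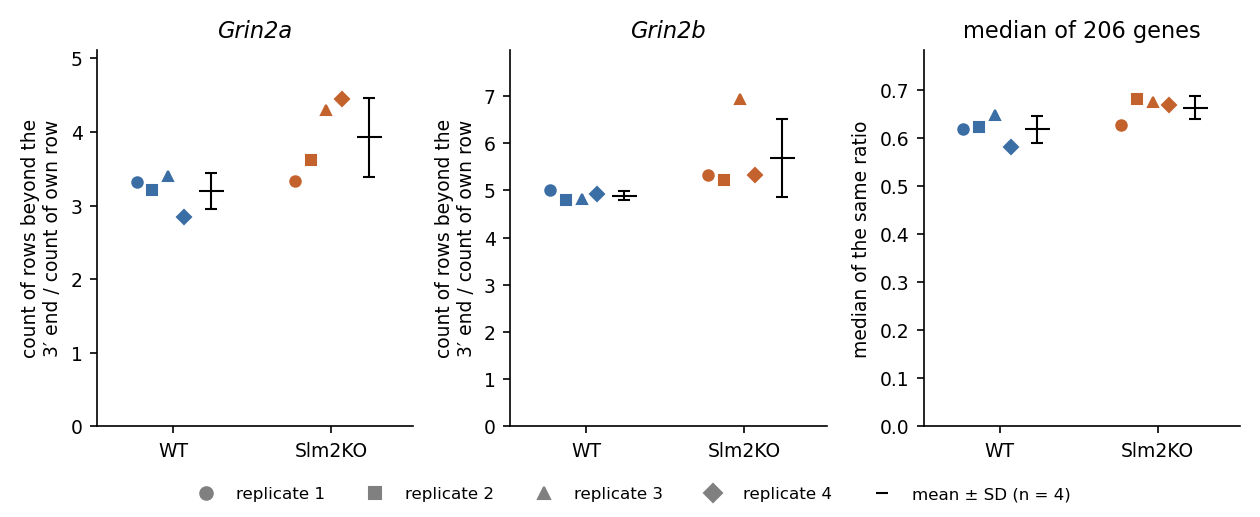
Ratio of the count in rows beyond the 3′ end to the count of the gene's own row, by library, for Grin2a, for Grin2b and as the median over 206 genes with such rows (linear axes from 0), with mean ± SD. The Slm2KO mean is higher in all 3 panels, with overlap for Grin2a and for the median, and the highest Grin2b point, 6.93, is Slm2KO 3.

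Ratios between subunits were compared between the labels from raw normalised counts, without division by length, since length cancels between libraries. The Grin2b/Grin2a ratio, the measure of the developmental exchange of GluN2 subunits, was 0.422, 0.401, 0.397 and 0.295 in WT and 0.368, 0.399, 0.319 and 0.468 in Slm2KO. The extremes were WT 4 at the low end and Slm2KO 4 at the high end, and the groups overlapped. The means were 0.379 ± 0.0570 and 0.389 ± 0.0623 (log2 difference 0.04; two-sided exact permutation p = 0.80, adjusted p = 0.90 over 9 ratios). With the rows beyond the ends the ratio was 0.529 ± 0.0562 and 0.524 ± 0.0311 (log2 difference -0.01, exact permutation p = 0.886). By this measure it ran from 0.454 to 0.586 over the 8 libraries, and WT 4 was again the lowest.

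Against the obligatory subunit, Grin3a/Grin1 was 0.0659 ± 0.00501 in WT and 0.0744 ± 0.00843 in Slm2KO (log2 difference 0.17, exact permutation p = 0.114, adjusted p = 0.60). Grin2c/Grin1 was 0.141 ± 0.0111 and 0.128 ± 0.0118 (-0.14, exact permutation p = 0.20, adjusted p = 0.60). Grin2a/Grin1 was 0.206 ± 0.0261 and 0.188 ± 0.0163 (-0.13, exact permutation p = 0.343, adjusted p = 0.617). For all 3 ratios the groups overlapped. Grin2b/Grin1 and Grin2d/Grin1 differed by -0.09 and -0.10 on the log2 scale and Grin2d/Grin2b by -0.01, with exact permutation p of 0.657, 0.429 and 0.914. The summed GluN2 level per kilobase over that of Grin1 was 0.393 ± 0.0228 in WT and 0.361 ± 0.0350 in Slm2KO (-0.13, exact permutation p = 0.20). The summed NMDA receptor level over the summed AMPA receptor level, both per kilobase, was 0.342 ± 0.0240 and 0.325 ± 0.0153 (-0.07, exact permutation p = 0.286). Of the 9 ratios from the named rows, 7 had a negative difference, 0 had groups that did not overlap and 0 had a p under 0.05, with adjusted p from 0.60 to 0.914. With the rows beyond the 3′ ends the tally was 5 negative and 4 positive: Grin2a/Grin1, Grin2b/Grin1 and the GluN2 sum over Grin1 turned to 0.10, 0.09 and 0.06, and Grin2b/Grin2a to -0.01, with exact permutation p of 0.457, 0.571, 0.686 and 0.886.

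**Figure D5:**
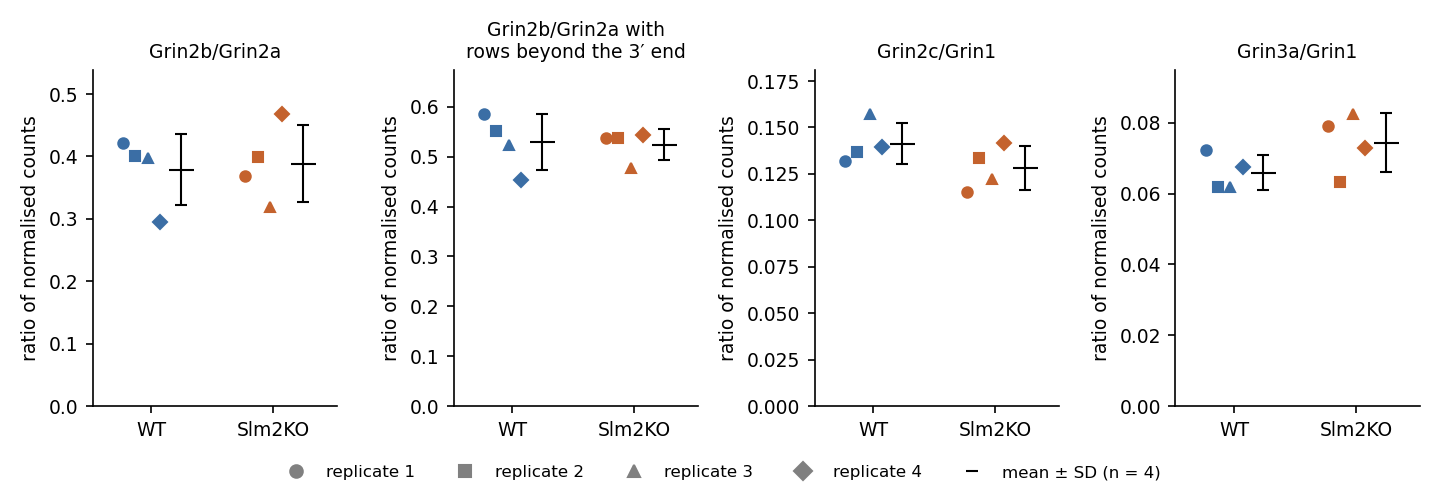
Ratios of normalised read counts by library (linear axes from 0) for Grin2b/Grin2a from the named rows, Grin2b/Grin2a with the rows beyond the 3′ ends, Grin2c/Grin1 and Grin3a/Grin1, with mean ± SD. WT and Slm2KO libraries overlap in all 4 panels, and adding the rows raises the WT mean of Grin2b/Grin2a from 0.379 to 0.529.

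Apart from the antisense row at Grin2d, the rows without a symbol inside the 6 gene spans were low. Of 10 such rows, 8 on the gene's own strand held 0 exonic bases and reached at most a mean of 39.3 normalised reads. Of the 10, 6 were tested and 0 passed (0 with an unadjusted p under 0.05). In Grin2a these introns held GSMG0015424, at 37.6 ± 12.4 in WT and 41.0 ± 22.8 in Slm2KO, and GSMG0015423, at 15.2 ± 6.88 and 8.71 ± 8.35. In Grin2b they held GSMG0033816, at 23.0 ± 13.6 and 20.0 ± 5.83, and GSMG0033815, at 14.5 ± 6.66 and 19.2 ± 5.80. An antisense row at the 5′ end of Grin2b, GSMG0032582, was 129 ± 14.9 and 124 ± 28.8. Grin1os, the antisense transcript of Grin1, was 30.4 ± 17.7 and 26.9 ± 9.99, or 0.0969% of the Grin1 count, and without strand its reads cannot be told apart from those of Grin1 where the genes overlap.

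Genes that work with the receptor were described from 7 lists of 103 genes outside the subunits. Of the 98 that were tested, 0 passed the threshold in either direction, and 2 (2.04%) had an unadjusted p under 0.05 against 3.52% of all features. The log2 difference was negative for 72 of 98 (73.5%), beside 53.9% of all features, with a median of -0.03 beside -0.01 over all features. The counts of negative differences in the lists below have the same background of 53.9%. Groups did not overlap for 1 gene (1.02%), against 2.5% of all features in either direction and 1.17% in the direction of that gene.

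Among 12 receptor modulators at the cell surface, 8 differences were negative (median -0.06). Lrp8, a reelin receptor that couples to NMDA receptors, was the gene without overlap, at 5907 ± 350 in WT and 4992 ± 354 in Slm2KO (log2 difference -0.24, SE 0.0660; limma adjusted p = 1.00). Its ligand Reln was 13539 ± 1051 and 14016 ± 1636 (0.05), and Neto1, an auxiliary protein of glutamate receptors, was 13525 ± 1114 and 14478 ± 1405 (0.10).
Among 22 kinases and phosphatases that act on the receptor, 15 differences were negative (median -0.02). Ptpn5, the phosphatase STEP that dephosphorylates GluN2B, was 10731 ± 593 and 9532 ± 554 (log2 difference -0.17; limma adjusted p = 1.00), with overlap. Ptk2b, the kinase Pyk2 that activates Src at the receptor, differed by -0.07 and the calcineurin subunit Ppp3ca by 0.07.

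Of 10 genes of co-agonist supply, 9 differences were negative (median -0.03). Slc6a9, the glycine transporter GlyT1, was 5368 ± 491 in WT and 4802 ± 598 in Slm2KO (-0.16; limma adjusted p = 1.00), while Srr, which makes D-serine, differed by -0.02 and the serine synthesis enzyme gene Psat1 by -0.02.
The 22 scaffold and transport genes held 15 negative differences (median -0.04). Dlg4, the scaffold PSD-95 that binds the GluN2 tails, was 97507 ± 10105 and 94598 ± 14220 (-0.05), Nsf differed by -0.05 and the exocyst gene Exoc4 by -0.11.
Downstream, 17 of 21 calcium signalling genes had a negative difference (median -0.04). Calm2 differed by 0.08 and the activity-regulated transcription factor Mef2c by -0.17 (limma adjusted p = 1.00).
Of 10 regulators of Grin transcription and of the exchange of Grin2b for Grin2a, 7 were negative (median -0.03), with Tbr1 at -0.13, Neurod2 at -0.06 and Grm5 at -0.03. Grina, named for its relation to NMDA receptors but no channel subunit, differed by -0.09. The 4 AMPA receptor subunit genes had 2 negative and 2 positive differences (median 0.01).

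The genes most alike in pattern were found by Pearson's r of log2(value + 1) over 8 libraries among 14788 genes with a mean of at least 100, as a description without a test. Grin1 had the most company, with 682 genes above an r of 0.9, led by Anapc5 (0.998), Ccnd1 (0.995) and Rapgef1 (0.990). For Grin2c 109 genes were above 0.9, led by Clec16a (0.984), Zfp512 (0.983) and Csf2rb (0.972). Grin2a had 69, led by C77370 (0.983), A930004D18Rik (0.970) and Runx2os1 (0.967), and Grin3a had 42, led by Pcdhb20 (0.980), Rspo3 (0.972) and Aplf (0.964). Fewest were found for Grin2d with 20, led by Wdr90 (0.957), Kcnt1 (0.956) and Sema4g (0.956), and for Grin2b with 12, led by Sox2 (0.978), Helz (0.973) and Mdn1 (0.968). The subunit genes themselves were left out of this search, and the points share the depth and tissue makeup of the same 8 libraries.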

How the data were processed

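The deposited table holds signal values, normalised read counts per feature that the authors scaled with DESeq, per the submitters' processing notes, which list FastQC, Picard and SAMtools as well, with no version. The notes list hg19, whereas coordinates are mm10 per the file headers. Aligner, counting program and use of strand: not given in the sources used here. Of 56575 features, 24338 have a symbol, and those without took 15.4% to 18.4% of a library's values. In each library 100% of values were whole multiples of 1 step within 0.001 reads, so whole reads were recovered, with size factors from 0.928 to 1.11. The step of WT 1 (size factor 0.999) is so near 1 that it cannot be told from rounding by itself, and its recovered reads are less certain.

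Groups were taken from the genotype labels. Features with a mean of at least 10 (25667) were tested with limma 3.58.1 (R 4.3.3, prior with an intensity trend) on log2(value + 1), with Benjamini-Hochberg adjustment over all of them. The procedure was also run on simulated counts with planted changes, drawn separately for each feature. Spread shared between features was not simulated, and no result here rests on that run. Subunit ratios were tested by two-sided exact permutation over 70 assignments of the 8 libraries (smallest p 0.0286). Exon lengths are those of protein-coding transcripts of GENCODE vM21. Alternatives were pseudocounts of 0.5 and 10, no filter or a mean of at least 50, TMM factors, quantile normalisation, edgeR 4.0.16, DESeq2 1.42.0, no trend, array weights, a replicate block, a covariate for sample numbers below or above 300 or for Ttr, and left-out libraries. Tables were read with Python 3.11.15.

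The members and gene lists were chosen with earlier results of these data known. The text names all members, tested features without a symbol at their loci (up to 5 a locus), the gene with the smallest p and the 2 with the highest mean of each list, and the 3 genes most alike to each member; 1 gene that this rule names is not reported here. Grin3b, Kif17, Csnk2b, Ppp3r1 and Drd1 were not analysed here. Libraries of a group differed by more than sampling noise in every pair (chi-square over its degrees of freedom 18.5 to 146.1).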

Additional observations from a re-analysis of the deposited data

Results flagged for a closer look

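In 50 groups of 4 libraries, 3 held a library whose gap to its nearest neighbour exceeded Dixon's 95% critical value as a share of the group's range, and chance flags about 1 in 20 groups. Grin1 in Slm2KO 4 was 23780 normalised reads, with the other Slm2KO libraries at 30579 to 31560 (gap over range 0.874). This library also held the highest Ttr count, and its part in the Grin1 value was not tested. Grin2d in Slm2KO 1 was 943, with the others at 789 to 814 (0.841). The ratio of the count beyond the 3′ end to the own row of Grin2b in Slm2KO 3 was 6.93, with the others at 5.22 to 5.32 (0.939).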

How the results depend on the processing

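No subunit gene, pathway gene, feature in the loci or subunit ratio passed the threshold under any alternative run, and the lowest adjusted p of a subunit gene was 0.770, for Grin3a. Grin2a, Grin2b, Grin2c, Grin2d and Grin3a kept the sign of their log2 difference in 22 of 22 alternatives, but their size moved: with 1 library left out it ran from -0.245 to -0.0679 for Grin2a, from -0.211 to -0.000638 (without Slm2KO 3) for Grin2b, from -0.230 to -0.123 for Grin2c, from -0.228 to -0.0658 for Grin2d and from 0.0413 to 0.248 for Grin3a. That of Grin1 turned positive with array weights (0.0258) and without the libraries of lowest and highest Ttr (0.131), and ran from -0.102 to 0.0687 with 1 library left out. Without the libraries of extreme Ttr, the log2 ratio differences of Grin2b/Grin2a and Grin2d/Grin2b turned to -0.0236 and 0.0474. With the rows beyond the 3′ ends, chosen after seeing the data, Grin2b/Grin2a turned to -0.0104, Grin2a/Grin1 to 0.101, Grin2b/Grin1 to 0.0906 and the GluN2 sum over Grin1 to 0.0553. With 1 library left out, Grin2b/Grin2a ran from -0.0781 to 0.128, Grin2b/Grin1 from -0.213 to 0.0516 and Grin2d/Grin2b from -0.118 to 0.107. Of 6 genes, 2 kept their place in the order per kilobase with the length of the longest transcript, 2 with all annotated exons, 3 with the rows beyond the ends and 4 to 6 with 1 library left out (4 without Slm2KO 1 or Slm2KO 3, where Grin2b and Grin3a changed places). The first pair of settings divide by bases that the rows may not count. The number of genes past the threshold for the ratio beyond the 3′ end ran from 0 to 3 with 1 library left out (3 without Slm2KO 1, neither Grin2a nor Grin2b). The causes were not tested.

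Libraries with the same replicate number did not pair (correlations of deviations 0.12, 0.32, -0.07 and -0.12). With the replicate block, 0 subunit genes and 0 pathway genes passed, and 1 feature in all, as without it. Counting error of the subunit genes was at most 3.67% in a library, while their coefficient of variation between libraries of a label was 7.12% to 17.7%.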
